A study of Mus musculus with 2 samples.

Results

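The enzymes described here make serine from a glycolytic intermediate and pass its carbon through the folate cycle. The set held 9 genes of the 55421 in the deposited table, chosen by symbol: Phgdh, Psat1 and Psph for serine synthesis, Shmt1, Shmt2, Mthfd1, Mthfd2 and Mthfd1l for the folate steps, and Tyms for thymidylate. Polyadenylated RNA was sequenced from 2 samples of mouse embryonic stem (ES) cells of the E14 line with Ago1 knocked out, called KO2 and KO1 after their titles. The cells had a 129/Ola background and were kept in serum and leukaemia inhibitory factor on gelatin. Both samples are labelled as Ago1 knockout, and the labels do not say whether they share an allele, a clone or a culture. No control library was used here, so the values describe cells with that label, and whether the spread between the samples is technical cannot be told.

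Serine is made in the cytosol in a short chain. Phgdh oxidises phosphoglycerate, Psat1 adds an amino group from glutamate, and Psph removes the phosphate. A serine hydroxymethyltransferase then moves a carbon of serine onto tetrahydrofolate and leaves glycine, in the cytosol through Shmt1 and in mitochondria through Shmt2. In mitochondria Mthfd2 oxidises the folate-bound carbon and Mthfd1l releases it as formate, whereas the cytosolic Mthfd1 carries both of these activities in a single protein and takes formate up again for purines, thymidylate and methionine. Tyms spends such a carbon to make thymidylate for DNA. Cultured mouse ES cells are known to divide fast and to draw on threonine as a further source of glycine and folate-bound carbon.

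The isozymes are encoded by separate genes, and the coding stretches below, from the reference transcripts of GENCODE release M21 on GRCm38, show how far their sequences can be told apart by reads. Each is the most similar ungapped stretch of 60 bases that starts at a codon boundary and lies within 1 exon of both partners. Stretches starting elsewhere in a codon were not compared. Bases run 5′ to 3′ on the coding strand, with capitals where the partners differ. The stretch of Shmt2 is at chr10:127519973-127520032 on the minus strand, and that of Shmt1 at chr11:60801506-60801565 on the minus strand, with 49 of 60 bases identical.
Shmt2: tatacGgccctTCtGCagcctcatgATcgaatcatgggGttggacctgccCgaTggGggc
Shmt1: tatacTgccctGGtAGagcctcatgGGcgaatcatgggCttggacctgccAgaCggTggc
The stretch of Mthfd2 is at chr6:83306736-83306795 on the minus strand, and its partner in Mthfd1 at chr12:76288946-76289005 on the plus strand, with 50 of 60 bases identical.
Mthfd2: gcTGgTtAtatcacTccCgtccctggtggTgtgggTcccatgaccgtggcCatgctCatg
Mthfd1: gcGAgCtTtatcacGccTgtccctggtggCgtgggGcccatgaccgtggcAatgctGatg
The stretch of Mthfd1l is at chr10:4032232-4032291 on the plus strand, and its partner in Mthfd1 at chr12:76294140-76294199 on the plus strand, with 49 of 60 bases identical.
Mthfd1l: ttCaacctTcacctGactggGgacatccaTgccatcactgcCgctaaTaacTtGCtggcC
Mthfd1: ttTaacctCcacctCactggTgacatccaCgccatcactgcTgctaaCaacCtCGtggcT
Over the whole coding sequences, the longest run of identical bases was 19 for Shmt2 and Shmt1, 14 for Mthfd2 and Mthfd1, and 20 for Mthfd1l and Mthfd1.

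The libraries held 54408708 counts in KO2 and 57048330 in KO1. ES cell markers were present, with 6 of 6 detected at a mean of 309 to 976 counts per 1000000 (CPM). Of 6 fibroblast feeder markers only Thy1 was detected, and neither library had a count of Lum or Postn. Of the trophectoderm markers 1 of 3 was detected, and of the primitive endoderm markers 3 of 3, the highest at 13.3 CPM. The targeted gene Ago1 still had reads, at 8.27 CPM in KO2 and 26.4 CPM in KO1. Ago1 in KO2 was thus at 0.314 of its level in KO1 (95% interval of counting error 0.282 to 0.349), a log2 ratio of -1.67, or -1.73 after the correction for GC content described further on. The libraries therefore differ in the targeted gene by more than 2-fold, and its part in the differences between them was not tested. Counts per gene do not show which part of the transcript they came from, so they do not check the label.

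All 9 enzymes were detected at 1 CPM or more in both libraries, where 24.1% of all genes and 55.3% of protein-coding genes were. Together they took 0.238% of the counts in KO2 and 0.205% in KO1. To compare genes with each other, levels are given as CPM per kb of merged exons. On that scale the median of the 9 members was 52.9 CPM per kb, beside 5.85 for all 12148 detected protein-coding genes. The highest member, Psat1, lay above 98.0% of those genes and the lowest, Psph, above 74.1%. In bulk RNA, fewer cells with a transcript and less of it per cell cannot be told apart.

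**Figure D1:**
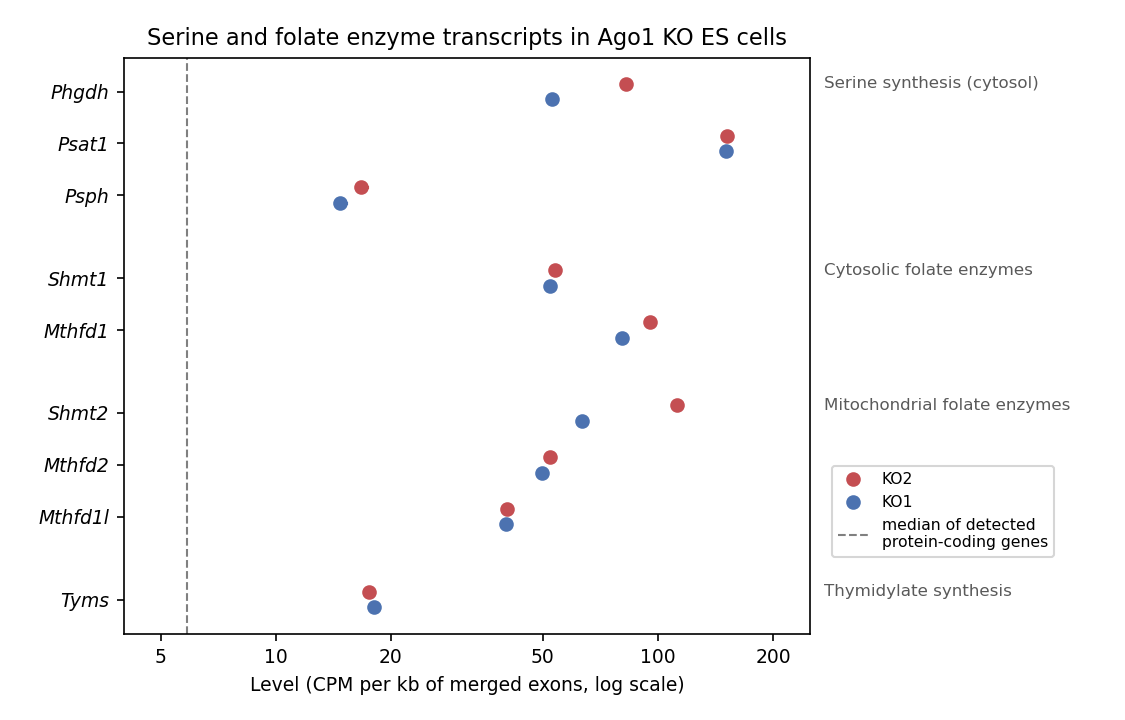
Level of each enzyme in CPM per kb of merged exons on a log axis, with KO2 in red above KO1 in blue, bars (mostly within the points) for the 95% Poisson interval of the count, and a dashed line at the median of detected protein-coding genes, 5.85 CPM per kb. Psat1 is at 151 to 152 in both libraries, Shmt2 and Phgdh are spread most between the libraries, and Tyms and Psph are lowest.

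Within serine synthesis the levels were uneven, with the middle step highest and the last step lowest. Psat1 (ENSMUSG00000024640, chromosome 19, 15904678 to 15947337, minus strand) had 35221 counts in KO2 and 36496 in KO1. These gave 152 CPM per kb in KO2 and 151 in KO1, a mean of 151 ± 0.376 CPM per kb (SD, n = 2). Psat1 was thus the most abundant member in both libraries, and it held 60.5% of the summed level of the 3 serine synthesis genes in KO2 and 69.1% in KO1.

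Phgdh, the entry enzyme of the pathway (ENSMUSG00000053398, chromosome 3, 98313170 to 98339990, minus strand), had 11174 counts in KO2 and 7467 in KO1. Its level was 82.3 CPM per kb in KO2 and 52.9 in KO1, with a mean of 67.6 ± 20.8 (SD, n = 2). Psat1 was 1.84-fold above Phgdh in KO2 (95% interval 1.80 to 1.88) and 2.86-fold above it in KO1 (2.79 to 2.93), so the order held in both libraries while its size did not. These and the other intervals cover counting error only, because they are computed from the counts and hold no spread between samples. Reads copied by PCR are not independent molecules, so the intervals may be too narrow even for counting error. Phgdh has many near copies in the genome. At 95% identity over at least 100 bases, its principal transcript matched 11 other annotated genes, 10 of them pseudogenes, and 7 of those matched over more than 1500 bases. The matching genes held 111 counts in KO2 and 78 in KO1, which were 0.993% of the count of Phgdh in KO2 and 1.04% in KO1. The sources used here do not give how reads shared with such copies were treated, so the level of Phgdh is uncertain. Its ratios to Psat1, which had no such match, and to Psph share this uncertainty.

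Psph, which completes serine (ENSMUSG00000029446, chromosome 5, 129765558 to 129787449, minus strand), had 3962 counts in KO2 and 3624 in KO1. It was at 16.8 CPM per kb in KO2 and 14.7 in KO1, with a mean of 15.7 ± 1.43 (SD, n = 2). Per kb of merged exons, Psat1 exceeded it 9.05-fold in KO2 and 10.2-fold in KO1, and Phgdh exceeded it 4.91-fold in KO2 and 3.59-fold in KO1. These folds depend on the length used, since the merged exons of Psph span 4329 bases and its principal transcript 1733. Scaled to principal transcripts, Psph was at 41.8 CPM per kb in KO2 and 36.8 in KO1. Psat1 was then at 246 in KO2 and 245 in KO1, and Phgdh at 108 in KO2 and 69.4 in KO1. The order held on that scale, but the folds over Psph were smaller in both libraries. The 5′ end of Psph lies under Cct6a, a chaperonin subunit gene on the opposite strand, over 452 bases or 26.1% of its principal transcript. Cct6a had 55317 counts in KO2 and 68158 in KO1. The libraries were reverse-stranded, per the labels, but the sources used here do not give the strand setting of the counting. Without strand, reads over those bases could not be assigned to either gene. The level of Psph and the folds over it are therefore uncertain too.

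The mitochondrial and cytosolic serine hydroxymethyltransferases were both well expressed, with the mitochondrial one higher per length in both libraries. Shmt2 (ENSMUSG00000025403, chromosome 10, 127517123 to 127522444, minus strand) had 19065 counts in KO2 and 11180 in KO1. Its level was 112 CPM per kb in KO2 and 63.3 in KO1, a mean of 87.8 ± 34.6 (SD, n = 2). No other member was spread as widely between the libraries.

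Shmt1 (ENSMUSG00000020534, chromosome 11, 60788104 to 60811718, minus strand) had 11421 counts in KO2 and 11480 in KO1. Its level was 53.8 CPM per kb in KO2 and 52.0 in KO1, a mean of 52.9 ± 1.27 (SD, n = 2). It shares 184 bases at its 3′ end, 6.44% of its principal transcript, with Smcr8 on the opposite strand. Shmt2 was 2.08-fold above Shmt1 in KO2 (95% interval 2.04 to 2.13) and 1.22-fold above it in KO1 (1.18 to 1.25). The mean log2 ratio was 0.67 ± 0.55 (SD, n = 2), so the size of the excess was not resolved from the spread between the libraries. Without length scaling the ratio of counts was 1.67 in KO2 and 0.974 in KO1, so in KO1 the direction rests on the shorter merged exons of Shmt2, 3109 bases against 3883 for Shmt1.

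At the later folate steps the cytosolic enzyme was the higher one. Mthfd1 (ENSMUSG00000021048, chromosome 12, 76255298 to 76319803, plus strand) had 23135 counts in KO2 and 20378 in KO1. These were 95.3 CPM per kb in KO2 and 80.8 in KO1, a mean of 88.0 ± 10.3 (SD, n = 2). Mthfd1 was 1.77-fold above Shmt1, its cytosolic partner, in KO2 and 1.55-fold above it in KO1.

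Mthfd2, the mitochondrial dehydrogenase and cyclohydrolase (ENSMUSG00000005667, chromosome 6, 83305691 to 83325908, minus strand), had 9970 counts in KO2 and 9822 in KO1. It was at 52.3 CPM per kb in KO2 and 49.6 in KO1, with a mean of 51.0 ± 1.95 (SD, n = 2). The ratio of Mthfd2 to Mthfd1 was 0.549 in KO2 (95% interval 0.536 to 0.562) and 0.614 in KO1 (0.599 to 0.629). With a mean log2 ratio of -0.78 ± 0.11 (SD, n = 2), the mitochondrial transcript was lower in both libraries by more than their spread. Mthfd2l, a second mitochondrial enzyme of the same activity, was among the low genes, with 107 counts or 0.295 CPM per kb in KO2 and 135 counts or 0.358 in KO1. It lay above 3.53% of detected protein-coding genes, against 92.3% for Mthfd2. Mthfd2 made up 99.4% ± 0.110 of the summed level of this pair (SD, n = 2).

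Mthfd1l, the mitochondrial formyl-tetrahydrofolate synthetase (ENSMUSG00000040675, chromosome 10, 3973118 to 4167081, plus strand), had 9737 counts in KO2 and 10059 in KO1. Its level was 40.2 CPM per kb in KO2 and 39.9 in KO1, a mean of 40.1 ± 0.185 (SD, n = 2). The ratio of Mthfd1l to Mthfd1 was 0.422 in KO2 (95% interval 0.412 to 0.432) and 0.494 in KO1 (0.483 to 0.506). Its mean log2 ratio was -1.13 ± 0.16 (SD, n = 2), again lower in both libraries by more than the spread. Per kb of merged exons, the mitochondrial transcripts stood in the order Shmt2, Mthfd2, Mthfd1l, from high to low, in each library. Without length scaling the order of Mthfd2 and Mthfd1l turned in KO1, with 182 and 178 CPM in KO2 and 173 and 177 CPM in KO1. Per kb, Mthfd1l was at 0.768 of the level of Mthfd2 in KO2 and at 0.805 in KO1.

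**Figure D2:**
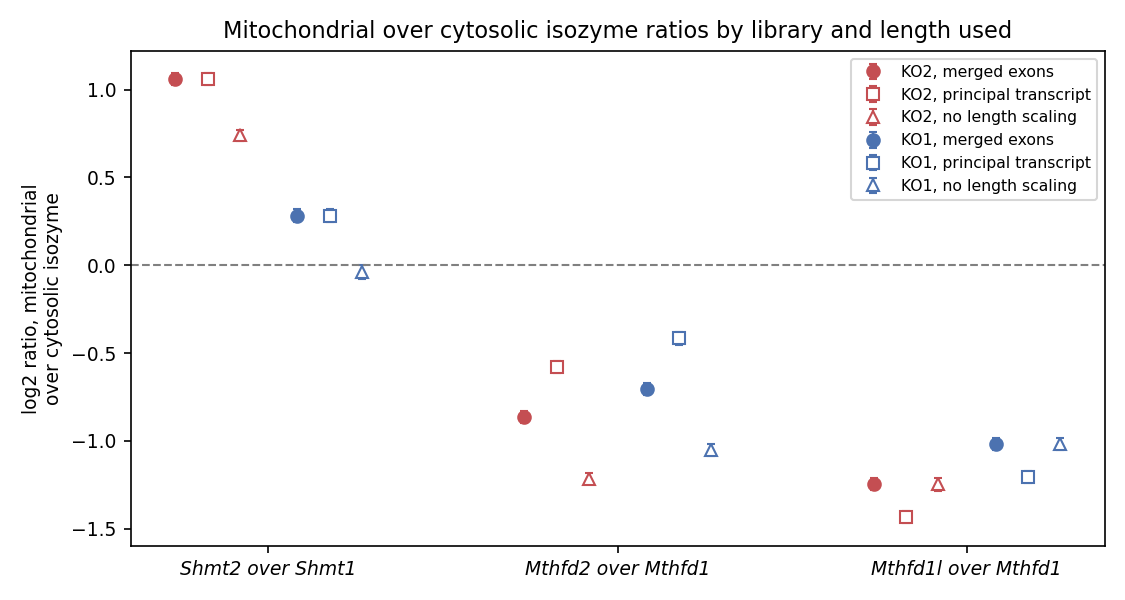
Log2 ratio of the mitochondrial over the cytosolic isozyme for 3 pairs, with KO2 in red left of KO1 in blue, for levels scaled to merged exons (filled circles), to the principal transcript (squares) or not scaled to length (triangles). Bars are 95% binomial intervals of counting error. Shmt2 is above Shmt1 in all cases but the unscaled ratio in KO1, and both Mthfd2 and Mthfd1l are below Mthfd1 in every case shown.

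Summed over the folate steps, the 3 mitochondrial transcripts had 205 CPM per kb in KO2 and 153 in KO1, and the 2 cytosolic transcripts had 149 in KO2 and 133 in KO1. The mitochondrial share was 57.9% in KO2 and 53.5% in KO1, a mean of 55.7% ± 3.08 (SD, n = 2). This share sets 3 genes against 2 and depends on the length used. It was computed for merged exons only, so which compartment holds more is not settled. Since Mthfd1 does the work of both Mthfd2 and Mthfd1l in a single protein, these sums count transcripts and not activities.

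Tyms, the thymidylate synthase gene (ENSMUSG00000025747, chromosome 5, 30058202 to 30073617, minus strand), had 5844 counts in KO2 and 6237 in KO1. Its level was 17.6 CPM per kb in KO2 and 18.0 in KO1, a mean of 17.8 ± 0.327 (SD, n = 2). The libraries differed little for this gene, and both values lay above that of Psph. Bases 1030 to 1393 of the principal Tyms transcript, beyond its coding part, matched 31 other annotated genes at 95% identity or more, so a part of its reads may be hard to place.

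Ordered by mean level per kb of merged exons, the members ran Psat1, Mthfd1, Shmt2, Phgdh, Shmt1, Mthfd2, Mthfd1l, Tyms and Psph. Neighbours whose ranges over the libraries overlapped were Mthfd1 and Shmt2, Shmt2 and Phgdh, Phgdh and Shmt1, and Shmt1 and Mthfd2. Of these, Mthfd1 and Shmt2 changed places between libraries, since Shmt2 was the higher in KO2 and Mthfd1 in KO1. The steps from Psat1 to Mthfd1, from Mthfd2 to Mthfd1l and from Mthfd1l to Tyms did not overlap. Tyms and Psph did not overlap either, but their order turned when levels were scaled to the principal transcript, with Psph at 39.3 ± 3.56 and Tyms at 34.3 ± 0.630 CPM per kb (SD, n = 2). Mthfd2 likewise moved above Shmt1 on that scale, at 85.2 ± 3.26 against 71.9 ± 1.72 CPM per kb. With no length scaling the mean of Phgdh, 168 ± 51.7 CPM, fell below that of Shmt1, 206 ± 4.93 CPM (SD, n = 2). It also fell below Mthfd2 at 178 ± 6.79 and Mthfd1l at 178 ± 0.821 CPM. In KO2 alone Phgdh, at 205 CPM, stayed above Mthfd2 and Mthfd1l.

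The 2 libraries were close for most members and furthest apart for Shmt2 and Phgdh. A gene was called different where the 95% interval excluded every ratio within 2-fold, among genes with 50 or more counts over both libraries. By that rule 0 of 9 members differed, beside 1.06% of 15619 genes. With 1.5-fold in place of 2-fold, Shmt2 and Phgdh differed, beside 6.6% of those genes. With DESeq2 size factors in place of TMM factors, a setting chosen after seeing the data, 1 member, Shmt2, differed at 1.5-fold, beside 5.43% of genes. Shmt2 was 1.77-fold higher in KO2 than in KO1 (95% interval 1.73 to 1.82) and Phgdh 1.56-fold (1.51 to 1.60). Mthfd1 was 1.18-fold and Psph 1.14-fold higher in KO2, and the other 5 lay between 0.974-fold for Tyms and 1.06-fold for Mthfd2. The ratio was above 1 for 8 of 9 members, beside 51.0% of all genes tested, but with DESeq2 size factors for 5 of 9, beside 45.6%. These DESeq2 factors were 1 for both libraries, so they left the difference in total counts in the ratios. The median log2 ratio of the members was 0.08, against 0.01 over all genes tested, and the median of its absolute value was 0.08 for the members and 0.28 for all genes. These medians of absolute values were not matched for counts or GC content. All genes include those near 50 counts, where counting error is larger, whereas each member had at least 3624 counts in each library. The comparison is of 2 libraries with the same label and has no replicate check.

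GC content moved with these ratios, and whether it was their cause was not tested. A trend with GC content cannot be told apart here from differences in expression that follow GC content. Shmt2 and Phgdh had the highest GC content of the longest transcript among the members, 57.4% and 57.2%, and the other 7 ranged from 46.7% for Tyms to 52.6% for Mthfd1. In coding sequence alone Shmt2 at 59.1% and Phgdh at 57.7% were again the highest. Mthfd1l followed at 53.0%, with Mthfd1 and Shmt1 each at 52.6%. Over all genes the log2 ratio of KO2 to KO1 rose with GC content, and a loess trend gave 0.57 at the GC content of Shmt2 and 0.56 at that of Phgdh.

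With that trend subtracted, the log2 ratio of Phgdh was 0.08 (95% interval 0.03 to 0.12), against 0.64 without. For Shmt2 it was 0.25 (0.22 to 0.29), against 0.83 without, and this was the largest absolute value among the corrected members. Corrected intervals, here and below, take the trend as exact and hold no scatter of genes around it. In the bin centred on 57% GC, uncorrected log2 ratios ran from 0.21 at the 10th percentile to 0.87 at the 90th, with the trend at 0.54. The value left for Shmt2 is thus not resolved from that scatter. After the correction 0 of 9 members differed at 1.5-fold, beside 0.897% of 15603 genes. The other corrected log2 ratios ran from -0.11 for Mthfd1l to 0.19 for Psph, and that of Psph was -0.06 when the GC content of the principal transcripts was used, a setting chosen after seeing the data. The log2 ratio of Shmt2 to Shmt1 differed by 0.78 between KO2 and KO1 (95% interval 0.73 to 0.83), and by 0.17 (0.12 to 0.22) after the trend was subtracted. For Psat1 and Phgdh the difference of -0.63 (-0.68 to -0.59) became 0.00 (-0.05 to 0.04). For Mthfd2 and Mthfd1 it was -0.16 (-0.21 to -0.11) without and 0.03 (-0.02 to 0.08) with the correction. For Mthfd1l and Mthfd1 it was -0.23 (-0.28 to -0.18) without and -0.17 (-0.21 to -0.12) with it.

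**Figure D3:**
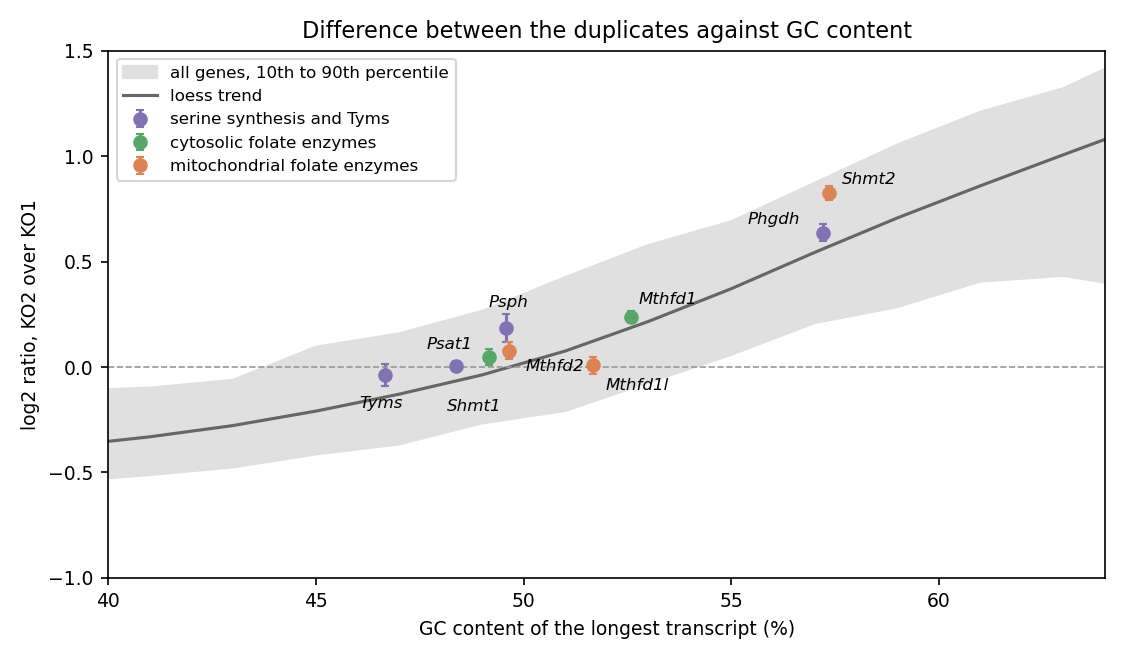
Log2 ratio of KO2 over KO1 against the GC content of the longest transcript in percent, for the 9 members with 95% intervals of counting error, over the 10th to 90th percentile of all genes with 50 or more counts over both libraries (grey) and their loess trend (line). Shmt2 at 0.83 and Phgdh at 0.64 lie at the GC-rich end, where the trend is at 0.57 and 0.56, and all 9 members lie within the grey band.

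Genes of the adjoining steps, taken from lists of known members, spanned a wider range than the members. Of 17 other folate enzymes and transporters 16 were detected, with a median of 4.58 CPM per kb over all 17. Gart, a purine synthesis enzyme that uses formyl-tetrahydrofolate, was highest at 118 ± 14.3 CPM per kb (SD, n = 2). Ftcd, which feeds carbon from histidine breakdown into the folate pool in liver, was lowest, with 6 counts in KO2 and 3 in KO1. The formyl-tetrahydrofolate dehydrogenases, which oxidise the folate-bound carbon to carbon dioxide, were low in both compartments. The mitochondrial Aldh1l2 was at 1.30 CPM per kb in KO2 and 1.29 in KO1, and the cytosolic Aldh1l1 at 1.92 in KO2 and 1.41 in KO1. Their ratio was 0.678 in KO2 (95% interval 0.598 to 0.769) and 0.914 in KO1 (0.799 to 1.05), and the interval in KO1 includes equality.

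Genes of serine transport and use were lower, with 6 of 8 detected and a median of 1.99 CPM per kb over all 8. The amino acid exchanger gene Slc1a5 was highest at 26.7 ± 4.68 CPM per kb (SD, n = 2), and the serine dehydratase gene Sds lowest, with 5 counts in KO2 and 3 in KO1. Of the thymidylate supply genes 6 of 6 were detected, from Rrm2, a subunit of ribonucleotide reductase, at 174 ± 1.51 CPM per kb to the thymidine kinase gene Tk1 at 8.23 ± 2.29, with a median of 55.2. All 4 glycine cleavage genes were detected, from Gcsh at 123 ± 16.5 to Dld at 41.3 ± 8.18 CPM per kb, with a median of 64.5. For the methionine cycle and transsulfuration 6 of 7 were detected, from Mat2a, which makes S-adenosylmethionine, at 131 ± 17.4 to Bhmt at 0.216 ± 0.0412 CPM per kb, with a median of 23.4 over all 7. Atf4, a transcription factor known to activate several of the serine and mitochondrial folate genes, was at 181 CPM per kb in KO2 and 165 in KO1. No gene of these lists differed between the libraries by the 2-fold rule, beside 1.06% of 15619 genes. At that share, lists this short would hold few such genes or none.

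**Figure D4:**
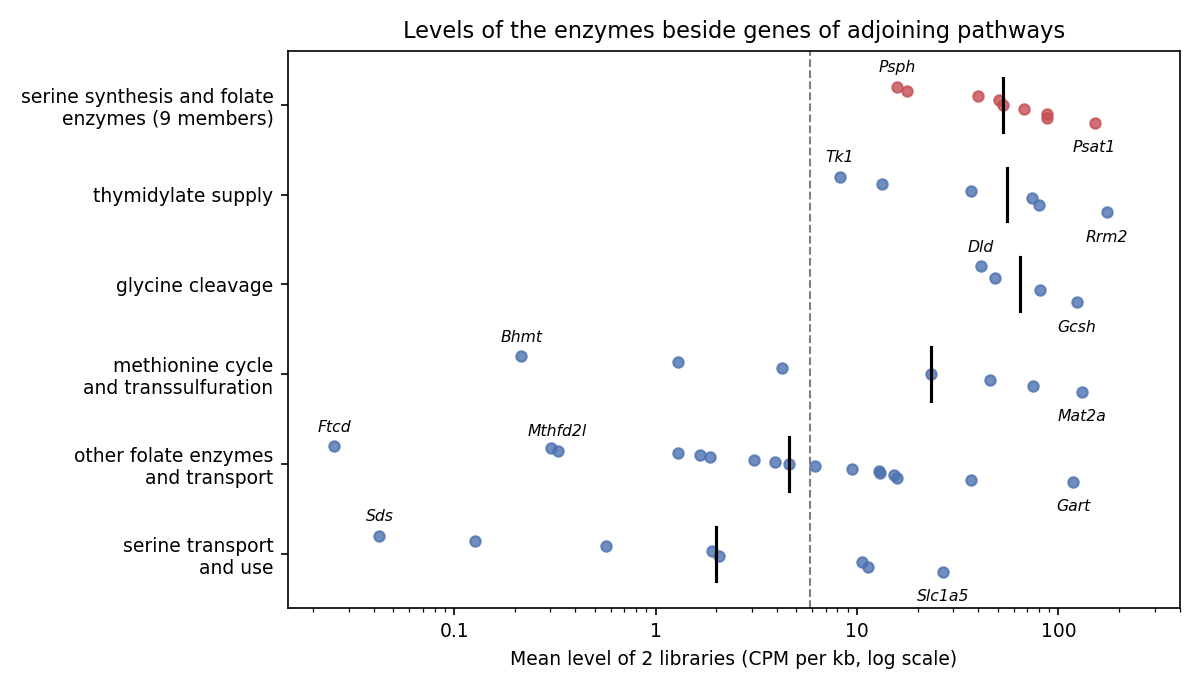
Mean level over 2 libraries in CPM per kb of merged exons on a log axis, for the 9 members (red) and the genes of 5 adjoining lists (blue), with a black bar at each list's median and a dashed line at the median of detected protein-coding genes, 5.85. All 9 members, with a median of 52.9, lie above that line, as do all thymidylate supply genes (median 55.2) and glycine cleavage genes (64.5). The median is 23.4 for the methionine cycle and transsulfuration, 4.58 for other folate genes and 1.99 for serine transport and use.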

How the data were processed

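The deposited values are raw read counts, whole numbers for each Ensembl gene in 1 column per library. The submitters' processing notes name build GRCm38. The sources used here do not give the aligner, the counter or the annotation. Of the gene identifiers, 55240 matched GENCODE release M21, which gave names, positions, lengths and GC content. CPM values were made with edgeR 4.0.16 (R 4.3.3) and TMM factors of 1.00 for KO2 and 0.996 for KO1, then divided by the length of merged exons. Principal transcripts are those tagged by APPRIS. A single group leaves nothing to test, so no p-value is given. Ratios have exact conditional binomial 95% intervals, with a prior count of 0.5 on the log2 ratio of libraries, and differences between log2 ratios have normal intervals from the counts. The loess trend (span 0.3) used genes averaging 50 counts or more. Near copies were sought with blastn 2.17.0. Other steps used python 3.11.15, scipy 1.17.1 and statsmodels 0.14.6. Of these, the 2-fold rule between libraries, the GC correction and the binomial interval of a ratio were tested on simulated data. Members, lists and the rule to name the highest and lowest gene of each list were chosen with earlier results of these data known. A further gene of the folate list is not reported here. Alternatives covered library scaling (also DESeq2 1.42.0 size factors), length, thresholds, GC content and each library alone.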

Additional observations from a re-analysis of the deposited data

How the results depend on the processing

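The GC correction with principal transcripts and the 1.5-fold rule with DESeq2 size factors were chosen after seeing the data. No paired analysis was possible because there is a single group. Detection of the 9 members held under every scaling, threshold and single library tried. The median level of 52.9 CPM per kb became 79.1 with the length of the longest or the principal transcript and 191 CPM with no length scaling, and each library alone gave 52.0 to 53.8. The mean log2 ratio of Mthfd2 to Mthfd1, -0.78, was -0.50 with either transcript length and -1.13 with none, and from -0.87 to -0.70 in single libraries. That of Mthfd1l to Mthfd1, -1.13, was -1.32 with either transcript length and from -1.25 to -1.02 in single libraries. That of Shmt2 to Shmt1, 0.67, was 1.06 without KO1 and 0.28 without KO2, and the length used moved it by less than its SD. A single library of 2 always lies within 1 SD of the mean, so these ranges are no measure of stability. The count of 0 members differing between the libraries was 2 at 1.5-fold, 1 at 1.5-fold with DESeq2 size factors, and stayed at 0 under the other alternatives. DESeq2 size factors were 1 for both libraries and gave a median log2 ratio of all genes of -0.05, against 0.01 with TMM. Depth was not the limit for the members, which had at least 3624 counts each, but Mthfd2l, Ftcd and Sds rested on few counts.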
